A study of Mus musculus with 6 samples.

Results

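The unfolded protein response and the integrated stress response were followed through 40 genes, chosen by symbol from the 46504 features counted in mouse gastrocnemius, the large muscle of the calf. Each of the 40 symbols matched a single row of the count table, and all 40 passed the filter on low counts. They comprise 14 chaperones and folding enzymes of the endoplasmic reticulum (ER), 4 genes of ER-associated degradation, 4 genes of the ER stress sensors and XBP1, 6 regulators of the integrated stress response, 4 genes of asparagine and serine synthesis, 3 mitochondrial folate enzymes and 5 tRNA synthetases. PolyA RNA came from wild type mice, with 3 control libraries and 3 libraries from mice confined every 4 days to 50 mL tubes, for 3 h at a time, and day 4 is the label of both groups. Strain, age, sex, the time of day of collection and the interval between the last restraint and collection are not stated in the labels. Since no label ties a library to a mouse of its own, p-values describe the spread among these 6 libraries, which may be technical. Total counts per library were between 44290720 and 51125779, and 15448 features were tested. Summed over 10 defining muscle fibre markers, levels were 166469 to 180987 CPM (counts per library total, scaled to a common size) in the 6 libraries, and none of these markers passed the test.

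Both responses slow the making of new protein and raise the capacity to cope with it. In the ER, the chaperone BiP (Hspa5) holds 3 sensors inactive, and unfolded clients release them. IRE1α (Ern1) then splices the messenger RNA of Xbp1, ATF6 (Atf6) is cut free as a transcription factor, and PERK (Eif2ak3) phosphorylates the translation factor eIF2α. XBP1 and ATF6 raise chaperones and degradation factors. Phosphorylated eIF2α, which other kinases also produce when amino acids are short or mitochondria are disturbed, favours translation of ATF4, whose targets include amino acid synthesis, tRNA charging and the mitochondrial folate pathway. Gene counts report the amount of messenger RNA, so that splicing of Xbp1, cleavage of ATF6, phosphorylation of eIF2α and translation of Atf4 were not measured. In whole muscle, fewer cells of a type and less RNA per cell cannot be told apart.

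The ER factors and ATF4 are known to act through short promoter elements, and the stretches below show examples of these from genes of each group. RefSeq promoter windows on GRCm38.p6, each 250 bases before to 50 bases after a transcription start, were matched by symbol for 34 of the 40 genes, of which 16 held at least 1 of the 5 elements searched. The ER stress element (ERSE, CCAAT and CCACG with 9 bases of any kind between them, searched on both strands like the other elements) lay in the windows of 8 of 19 ER genes and in 0.119% of all 32851 windows, and in none of the 6 regulator genes or the 9 amino acid, folate and synthetase genes. The related ERSE-II (ATTGG and CCACG with 1 base of any kind between them), which shares CCACG with ERSE and whose ATTGG is CCAAT on the other strand, was found in Herpud1 and Dnajb11 and in 0.0365% of windows. The C/EBP-ATF response element bound by ATF4 (CARE, TGATG and AA with 1 base of any kind between them) was found in Asns, Gars, Aars, Chac1, Trib3 and Herpud1 and in 3.97% of windows. The cyclic AMP response element (CRE, TGACGTCA) was found in Ppp1r15a and in 1.79% of windows, while the XBP1 element UPRE (TGACGTGG), which shares TGACGT with CRE, lay in 0.676% of windows and in none of the 34 genes. Matches are letters in a window, and absence says nothing of a factor. Capitals mark ERSE in Hspa5, Hsp90b1 and Calr, CARE followed by ERSE-II in Herpud1, CARE in Asns, Chac1 and Gars, and CRE in Ppp1r15a, each read 5′ to 3′ on the strand of the gene:
Hspa5 (chr2:34772010-34772058, plus strand): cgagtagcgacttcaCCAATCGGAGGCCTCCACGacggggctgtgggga
Hsp90b1 (chr10:86705518-86705671, minus strand): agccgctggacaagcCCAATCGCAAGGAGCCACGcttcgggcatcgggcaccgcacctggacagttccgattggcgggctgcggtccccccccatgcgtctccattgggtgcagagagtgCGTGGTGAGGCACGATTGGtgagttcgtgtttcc
Calr (chr8:84847060-84847108, minus strand): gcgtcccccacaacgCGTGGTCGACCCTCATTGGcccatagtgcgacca
Herpud1 (chr8:94386302-94386402, plus strand): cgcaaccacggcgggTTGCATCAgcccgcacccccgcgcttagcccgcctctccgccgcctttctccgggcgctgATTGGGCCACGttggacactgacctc
Asns (chr6:7693210-7693247, minus strand): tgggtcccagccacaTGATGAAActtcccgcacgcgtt
Chac1 (chr2:119351034-119351071, plus strand): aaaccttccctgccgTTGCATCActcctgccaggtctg
Gars (chr6:55037956-55037993, plus strand): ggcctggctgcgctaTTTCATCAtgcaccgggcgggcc
Ppp1r15a (chr7:45526269-45526295, minus strand): accccgcctctccggTGACGTCAgcac

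In restraint, the eIF2α phosphatase subunit Ppp1r15a and the mitochondrial folate enzyme Mthfd2 were higher, each by over 2-fold, while no chaperone, degradation factor or ER stress sensor passed the test. Of the 40 genes, 2 rose and 0 fell by edgeR's quasi-likelihood test at an adjusted p of 0.05 over all 15448 features. Across all features 1.83% passed, 1.26% higher and 0.563% lower. At an unadjusted p under 0.05 the number was 8 of 40, against 2411 of 15448. In CPM, 10 genes were higher and 2 lower in restraint with no overlap of the groups, against 10.6% and 11.1% of all features. By group, these were 2 higher and 1 lower of the 22 ER genes, 2 higher and 1 lower of the 6 regulators, and 6 higher and 0 lower of the 12 amino acid, folate and synthetase genes. Median log2 fold changes were 0.0075 for the 22 ER genes, 0.16 for the 6 regulators and 0.14 for the 12 amino acid, folate and synthetase genes, and -0.0053 over all features. The difference between the groups of genes was not tested, since genes are not replicates of a condition. Both calls rest on these particular 6 libraries. DESeq2 called 4 of the 40 (Ppp1r15a, Mthfd2, Chac1 and Psat1), limma voom called Ppp1r15a alone, and with each library left out in turn the number ran from 0 to 3.

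**Figure D1:**
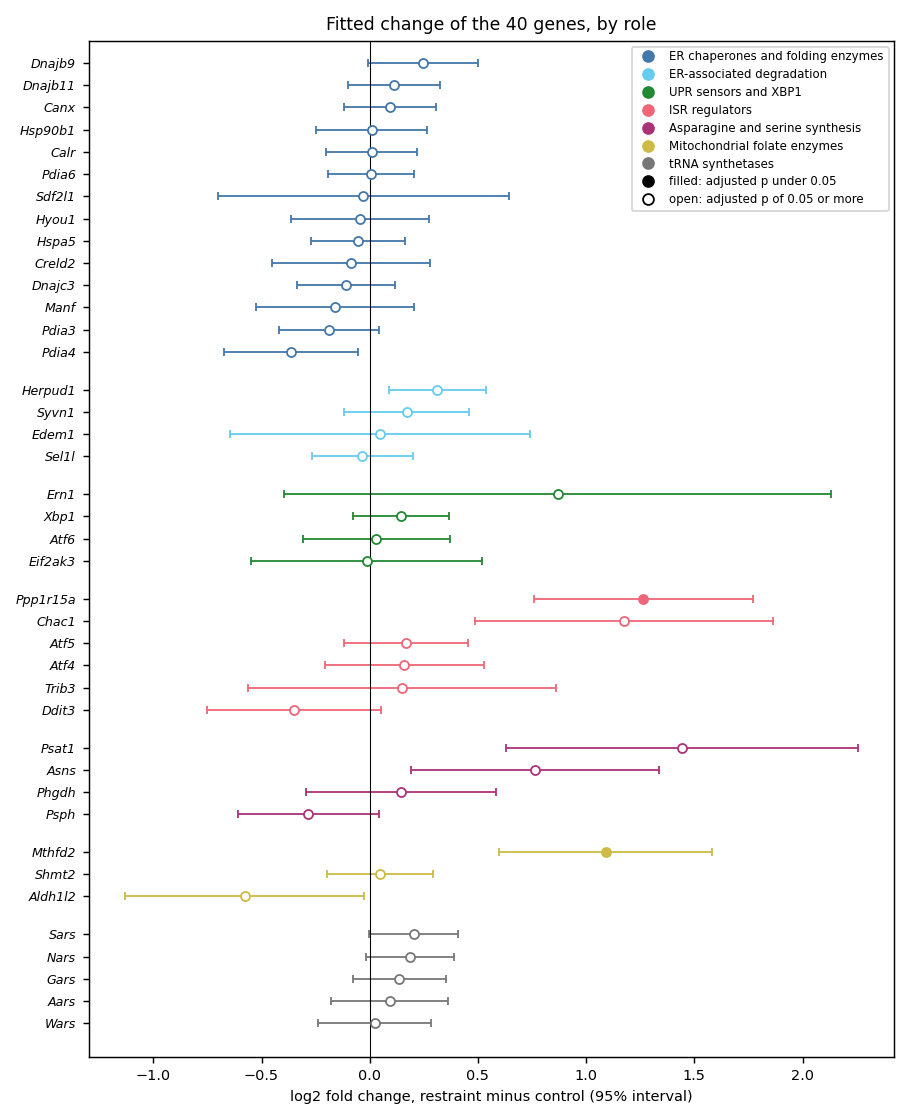
Fitted log2 fold change (x axis, restraint minus control, with its 95% interval from edgeR) of each of the 40 genes (y axis), grouped and coloured by role, from 3 control and 3 restraint libraries. Filled points mark the 2 genes with an adjusted p under 0.05, Ppp1r15a at 1.26 and Mthfd2 at 1.09; the ER chaperones lie between -0.36 and 0.24.

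Among the regulators, Ppp1r15a stood apart from Atf4 and Ddit3. Ppp1r15a (gene 17872, chromosome 7 from 45522917 to 45526268 on GRCm38) encodes GADD34, which brings protein phosphatase 1 to eIF2α and so ends the translational block. It stood at 15.2, 19.5 and 16.9 CPM across controls 1 to 3 and at 32.6, 57.9 and 33.5 CPM across restraint 1 to 3. Each restraint library lay above every control, and restraint 2 was the highest by a wide margin. Ppp1r15a rose by a log2 fold change of 1.26 ± 0.22 (SE; edgeR adjusted p = 0.0305, n = 3 per group, fitted across all features). Without restraint 2 the log2 fold change was 0.94 with an edgeR adjusted p of 0.0299, and the call was lost without any control and without restraint 3, with adjusted p from 0.0634 to 0.175. Chac1, an ATF4 target that degrades glutathione, stood at 66.7, 71.5 and 83.0 CPM across controls 1 to 3 and at 149, 255 and 95.6 CPM across restraint 1 to 3. In CPM its groups did not overlap either, but restraint 2 held about the level of restraint 1 and restraint 3 together. In TPM, the authors' length-corrected measure, control 3 lay above restraint 3, at 103.6 against 102.4. The log2 fold change of Chac1 was 1.18 ± 0.30 (edgeR adjusted p = 0.102), and 0.73 without restraint 2.

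Atf4 itself, the transcription factor at the centre of the response, stood at 146, 182 and 119.9 CPM across controls 1 to 3 and at 181, 145 and 174 CPM across restraint 1 to 3. The groups overlapped fully, and the log2 fold change was 0.16 ± 0.16, with a 95% interval of -0.21 to 0.53. Ddit3, encoding the transcription factor CHOP that is associated with lasting ER stress, stood at 7.27, 9.67 and 6.83 CPM across controls 1 to 3 and at 6.76, 5.25 and 6.59 CPM across restraint 1 to 3. All 3 restraint libraries lay below the lowest control, restraint 1 only just, at 6.76 against 6.83 CPM in control 3. The log2 fold change was -0.35 ± 0.18 (edgeR adjusted p = 0.392). Exons of Ddit3 overlap those of Mars on the other strand by up to 68 bases, with means of 326 and 2046.5 counts per library. No source used here says whether counting used strand. Such overlaps exist for 14 of the 40 genes. Among them, Manf shares up to 146 bases with Dcaf1, with means of 492.5 and 713 counts per library. Syvn1 shares up to 91 bases with Mrpl49, with means of 709 and 991 counts. Atf5, a relative of Atf4, and Trib3, a pseudokinase that CHOP and ATF4 induce, had log2 fold changes of 0.17 ± 0.13 and 0.15 ± 0.31, with overlapping groups. Per unit of length Atf4 was the most abundant of the 40 transcripts in controls at 147 ± 11.4 TPM (the authors' length-corrected measure, mean ± SD, n = 3), and its range over the control libraries overlapped that of its neighbour Calr, at 129.9 ± 13.5 TPM. Herpud1, Hspa5 and Chac1 came next at 105 ± 14.6, 89.1 ± 9.81 and 82.1 ± 18.8 TPM, with the control libraries of neighbours in this order overlapping, while Trib3 stood at 0.988 ± 0.253 TPM.

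**Figure D2:**
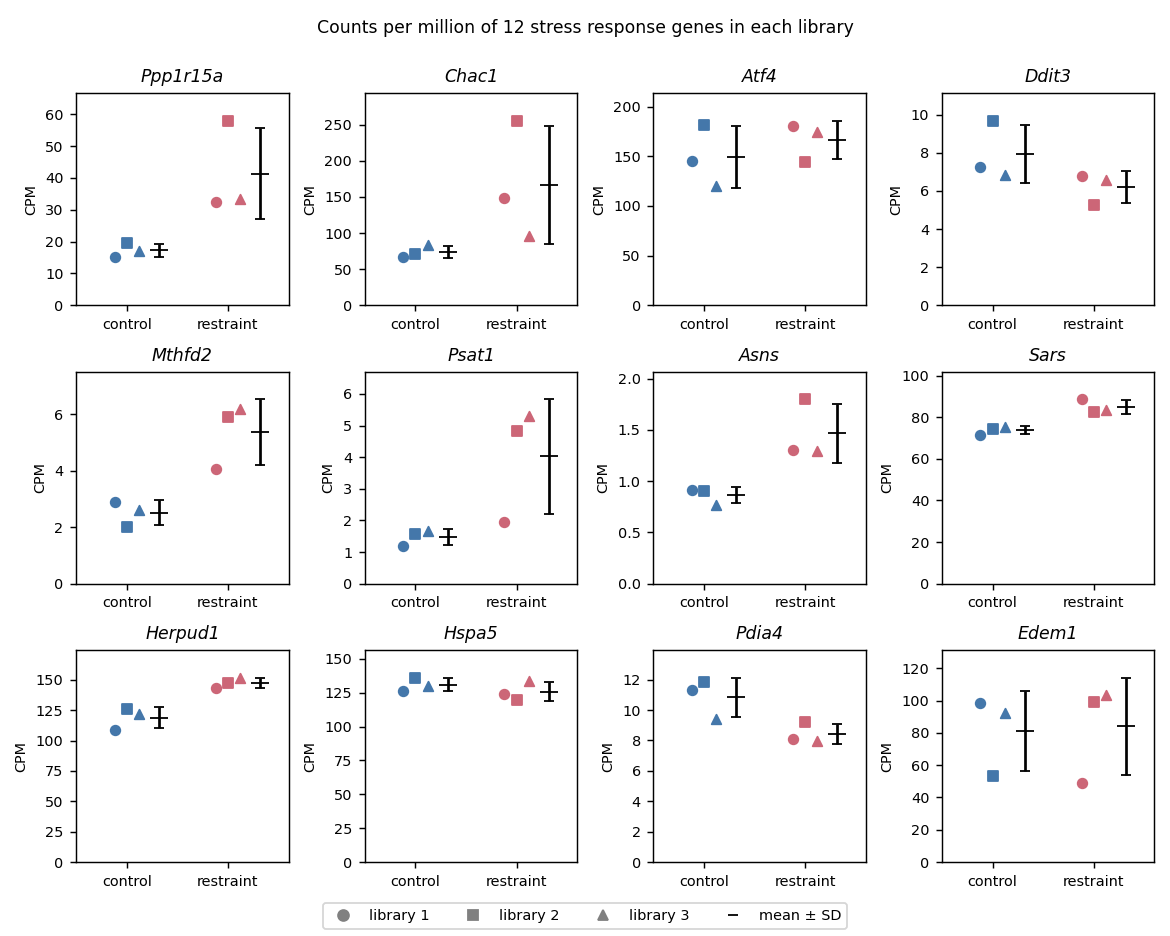
CPM (y axis, from 0) of 12 of the 40 genes in the 3 control and the 3 restraint libraries (x axis); marker shapes give the library number within a group, which does not pair libraries, and bars give mean ± SD. Ppp1r15a, Chac1, Mthfd2, Psat1, Asns, Sars and Herpud1 are higher in each restraint library than in any control, Pdia4 and Ddit3 are lower, and Hspa5, Atf4 and Edem1 overlap.

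Of the genes that make serine-derived one-carbon units in mitochondria, Mthfd2 was higher and its partners did not pass the test. Mthfd2 (gene 17768, chromosome 6 from 83305704 to 83326011 on GRCm38), which oxidises methylene-tetrahydrofolate, stood at 2.90, 2.02 and 2.62 CPM across controls 1 to 3 and at 4.04, 5.89 and 6.18 CPM across restraint 1 to 3. The lowest restraint library, restraint 1, lay above the highest control, and restraint 2 and 3 were close to each other. Mthfd2 rose by a log2 fold change of 1.09 ± 0.22 (edgeR adjusted p = 0.0458). The call was lost with library totals in place of TMM factors (adjusted p = 0.0815), with limma voom (0.0665) and with each library left out except restraint 1 (0.1 to 0.169). Shmt2, the mitochondrial enzyme upstream that splits serine, stood at 21.5, 21.5 and 24.6 CPM across controls 1 to 3 and at 24.2, 24.5 and 21.2 CPM across restraint 1 to 3, and its groups overlapped. Its log2 fold change was 0.047 ± 0.11, with a 95% interval of -0.20 to 0.29 that does not reach the value of Mthfd2. Aldh1l2, which releases the carbon unit as carbon dioxide, stood at 5.04, 3.05 and 5.87 CPM across controls 1 to 3 and at 2.74, 3.23 and 3.40 CPM across restraint 1 to 3. Control 2 lay within the range of the restraint libraries, and the log2 fold change was -0.58 ± 0.24 (edgeR adjusted p = 0.3). Exons of Aldh1l2 overlap D10Wsu102e on the other strand by up to 1056 bases, and D10Wsu102e had a mean of 205 counts per library against 185 for Aldh1l2.

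In serine synthesis the middle enzyme differed most between the groups. Psat1, which transfers the amino group, stood at 1.18, 1.58 and 1.67 CPM across controls 1 to 3 and at 1.95, 4.82 and 5.30 CPM across restraint 1 to 3. Restraint 1 lay close to the controls and restraint 2 and 3 lay well above them. The log2 fold change of Psat1, the largest of the 40, was 1.44 ± 0.36 (edgeR adjusted p = 0.0909), and Psat1 was called at an adjusted p of 0.00835 without restraint 1. Phgdh, the first enzyme of the pathway, had a log2 fold change of 0.14 ± 0.19 and overlapping groups. Psph, the last, stood at 9.29, 8.28 and 6.94 CPM across controls 1 to 3 and at 6.94, 6.66 and 6.53 CPM across restraint 1 to 3, a log2 fold change of -0.28 ± 0.14 (edgeR adjusted p = 0.396). Psph shares up to 452 exonic bases with Cct6a on the other strand, which had a mean of 4601 counts per library against 346 for Psph.

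Asns, which makes asparagine and is a standard reporter of ATF4, stood at 0.919, 0.901 and 0.771 CPM across controls 1 to 3 and at 1.30, 1.80 and 1.30 CPM across restraint 1 to 3. Its groups did not overlap, at 37 to 84 counts per library. The log2 fold change of Asns was 0.76 ± 0.25 (edgeR adjusted p = 0.188). Per unit of length its mean in controls was the lowest of the 40, at 0.689 ± 0.0167 TPM. Ern1 was nevertheless lower than Asns in controls 1 and 2, at 0.612 and 0.217 TPM against 0.703 and 0.693 TPM. The levels of Psat1 and Mthfd2 in controls were of the same order, at 1.16 ± 0.299 and 2.07 ± 0.622 TPM, whereas Shmt2 stood at 17.1 ± 3.48 TPM.

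The 5 tRNA synthetases, which load amino acids onto their tRNAs, had positive log2 fold changes between 0.023 and 0.20, and none passed the test. Sars, for serine, stood at 71.6, 74.4 and 75.3 CPM across controls 1 to 3 and at 88.7, 82.4 and 83.7 CPM across restraint 1 to 3. Nars, for asparagine, stood at 95.2, 101 and 101 CPM across controls 1 to 3 and at 112, 115 and 112 CPM across restraint 1 to 3. Gars, for glycine, stood at 58.2, 61.6 and 54.0 CPM across controls 1 to 3 and at 64.1, 63.5 and 63.6 CPM across restraint 1 to 3. In CPM, every restraint library was above every control in these 3 genes, by small margins and with restraint libraries close together. In TPM this separation held for Gars, but control 3 lay above restraint 3 in Sars (40.4 against 38.6). Control 3 also lay above restraint 1 and 3 in Nars (74.6 against 73.0 and 70.8 TPM). Log2 fold changes of Sars, Nars and Gars were 0.20 ± 0.091, 0.19 ± 0.09 and 0.14 ± 0.094, with edgeR adjusted p of 0.327, 0.376 and 0.546. Aars and Wars, for alanine and tryptophan, had log2 fold changes of 0.093 ± 0.12 and 0.023 ± 0.11 with overlapping groups. The 95% intervals of all 5 lay within 0.5 of 0 on the log2 scale, with the highest upper bound at 0.41.

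The 14 ER chaperones and folding enzymes showed no common direction: 6 were positive and 8 negative in log2 fold change, with a median of -0.037, and 1 was at an unadjusted p under 0.05. Hspa5, the chaperone BiP and the usual reporter of ER stress, stood at 126, 136 and 129.9 CPM across controls 1 to 3 and at 124, 119.9 and 134 CPM across restraint 1 to 3. Control and restraint libraries were interleaved. The log2 fold change of Hspa5 was -0.056 ± 0.095, with a 95% interval of -0.27 to 0.16, and for 11 of the 14 genes the interval lay within 0.5 of 0. The lectin chaperones Calr and Canx had 0.0094 ± 0.092 and 0.093 ± 0.093, the HSP90 of the ER, Hsp90b1, 0.0096 ± 0.11, and the disulfide isomerase Pdia6 0.0055 ± 0.088, all as log2 fold changes. Pdia6 also varied least within groups of the 40 genes, with a within-group SD of 0.031 on the log2 CPM scale, where the median over 15209 features with a count in every library was 0.22.

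Of the 14, the disulfide isomerase Pdia4 had the smallest p. Pdia4 stood at 11.3, 11.8 and 9.38 CPM across controls 1 to 3 and at 8.11, 9.19 and 7.94 CPM across restraint 1 to 3. Its 3 restraint libraries lay below all controls, by a small margin against control 3, and the log2 fold change was -0.36 ± 0.14 (edgeR adjusted p = 0.241). Pdia3, which works with Calr and Canx on glycoproteins, stood at 47.9, 49.6 and 41.9 CPM across controls 1 to 3 and at 39.6, 40.6 and 42.2 CPM across restraint 1 to 3, with the highest restraint library just above the lowest control. Its log2 fold change was -0.19 ± 0.10. Relatives outside the 40 had no common direction. P4hb had a log2 fold change of 0.23 ± 0.09 (edgeR adjusted p = 0.268), with its restraint libraries all above the controls. Pdia5 had 0.17 ± 0.22 and Erp29 0.034 ± 0.16, while Txndc5 had -0.17 ± 0.12, Txndc11 -0.083 ± 0.17 and Erp44 -0.00035 ± 0.14. All of these relatives were named after their values were seen.

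The co-chaperones of BiP were spread around 0. Dnajb9, the J protein ERdj4 that returns IRE1α to BiP, stood at 29.3, 35.8 and 37.0 CPM across controls 1 to 3 and at 39.3, 40.6 and 41.0 CPM across restraint 1 to 3. In CPM, restraint libraries were all above controls and close together, with a log2 fold change of 0.24 ± 0.11 (edgeR adjusted p = 0.34). In TPM, control 3 lay above restraint 1 and 3, at 38.8 against 36.4 and 37.0. Dnajb11, another J protein, and Dnajc3, which restrains PERK, had log2 fold changes of 0.11 ± 0.094 and -0.11 ± 0.099. Hyou1, the nucleotide exchange factor of BiP, Manf, a secreted factor kept in the ER by BiP, Creld2 and Sdf2l1 had -0.045 ± 0.14, -0.16 ± 0.16, -0.085 ± 0.16 and -0.03 ± 0.30, with overlapping groups in all 4. At 50 to 120 counts per library, Sdf2l1 had the widest interval of the 14, -0.70 to 0.64.

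In ER-associated degradation, Herpud1 was the member with the clearest separation. Herpud1, a membrane protein that assembles the degradation complex, stood at 109, 126 and 122 CPM across controls 1 to 3 and at 144, 147 and 152 CPM across restraint 1 to 3. Each restraint library exceeded every control, and the spread within restraint was small. Its log2 fold change was 0.31 ± 0.099 with a 95% interval of 0.088 to 0.54, and it did not pass the test (edgeR adjusted p = 0.173). The promoter of Herpud1 was the one among the 34 that held both an ER stress element and CARE. Syvn1, the ubiquitin ligase HRD1, stood at 12.9, 15.03 and 15.1 CPM across controls 1 to 3 and at 15.3, 18.5 and 14.6 CPM across restraint 1 to 3, and Sel1l, its adaptor, at 36.2, 39.6 and 43.1 CPM across controls 1 to 3 and at 36.7, 38.8 and 40.7 CPM across restraint 1 to 3. Groups overlapped in both, with log2 fold changes of 0.17 ± 0.13 and -0.033 ± 0.10.

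Edem1, a lectin-like factor that hands misfolded glycoproteins to the complex, was singled out after its values were seen. It stood at 98.7, 53.1 and 92.1 CPM across controls 1 to 3 and at 49.1, 99.1 and 104 CPM across restraint 1 to 3. Control 2 and restraint 1 were low and the other 4 libraries were all above 90 CPM, so that the difference lay between libraries of the same group. The log2 fold change was 0.047 ± 0.30, and the within-group SD of 0.55 was above that of 89.1% of features.

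The sensors gave no call. Ern1, encoding IRE1α, stood at 1.41, 0.585 and 3.38 CPM across controls 1 to 3 and at 2.65, 5.12 and 2.15 CPM across restraint 1 to 3, at 24 to 239 counts per library. Control 3 lay above restraint 1 and 3, and no other gene of the 40 varied as much within groups (within-group SD of 1.01 on the log2 CPM scale). Its log2 fold change of 0.87 ± 0.56 accordingly had a 95% interval of -0.39 to 2.13. Xbp1, the target of IRE1α, stood at 38.8, 40.4 and 43.5 CPM across controls 1 to 3 and at 42.5, 45.0 and 48.2 CPM across restraint 1 to 3, and Atf6 at 22.03, 20.0 and 26.9 CPM across controls 1 to 3 and at 20.8, 27.5 and 22.2 CPM across restraint 1 to 3. Groups overlapped in both, with log2 fold changes of 0.14 ± 0.098 and 0.03 ± 0.15, and -0.015 ± 0.23 for Eif2ak3, which encodes PERK. The 10 genes whose promoter window held ERSE or ERSE-II had log2 fold changes from -0.11 to 0.31 with a median of 0.0095. The 6 with CARE had 0.093 to 1.18 with a median of 0.23, and over all 301 tested genes with CARE the median was 0.020 and 5 rose (1.66%), against 1.25% of the 11119 tested features with a window. Ppp1r15a was 1 of 7 genes that rose among 369 with CRE (1.90%).

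**Figure D3:**
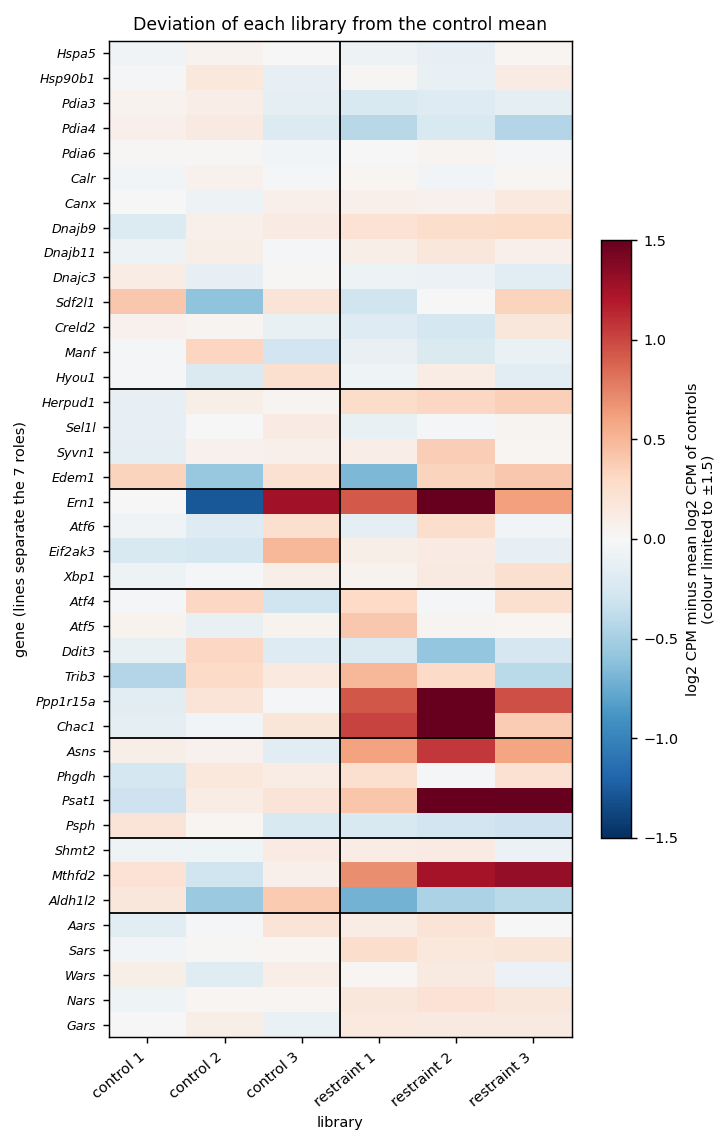
Deviation of log2 CPM from the mean of the 3 controls (colour, limited to ±1.5) for each of the 40 genes (rows, ordered by role) in each library (columns). Ppp1r15a, Chac1, Asns, Psat1 and Mthfd2 are above the controls in all 3 restraint libraries, to different degrees, while of the chaperone rows at the top Pdia4 is below the controls in all 3 and Sdf2l1 varies within both groups.

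Libraries within restraint did not share a single order. Restraint 2 was the highest for Ppp1r15a, Chac1 and Asns. In CPM, restraint 3 was the highest for Psat1 and Mthfd2, and restraint 1 was the lowest of the group for both. In TPM, restraint 2 lay above restraint 3 for both, at 4.20 against 4.09 for Psat1 and 5.35 against 4.95 for Mthfd2. The median deviation from the control mean over the 12 amino acid, folate and synthetase genes was -0.017, 0.021 and 0.087 on the log2 scale across the controls and 0.16, 0.15 and 0.15 across restraint 1 to 3. For the 22 ER genes it was -0.034, 0.050 and 0.038 in restraint and -0.033, 0.030 and 0.059 in controls.

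Markers of other cell types also differed between libraries, some of them within controls as well as within restraint. Summed CPM of 12 macrophage markers was 76.4, 70.2 and 56.0 across controls 1 to 3 and 69.4, 206 and 107 across restraint 1 to 3. All 12 were positive in log2 fold change, with a median of 0.73, and 1 of them (Cd68) passed. No macrophage marker was at 0 in all libraries, and 1 was under 1 CPM throughout. Within restraint, summed macrophage markers were thus lowest in restraint 1 and highest in restraint 2, an order that Ppp1r15a shared. Restraint 1 and 3 both had 1449 counts of Ppp1r15a, however. In CPM, Psat1 and Mthfd2 were also lowest in restraint 1 but highest in restraint 3. In TPM, both genes were lowest in restraint 1 and highest in restraint 2. Chac1 and Asns were highest in restraint 2 but lowest in restraint 3. For Asns this was 56 counts, against 58 in restraint 1. The part of macrophage markers in these results was not tested. Cd68 stood at 1.41, 1.24 and 1.12 CPM across controls 1 to 3 and at 2.29, 13.6 and 11.5 CPM across restraint 1 to 3, above the controls in each restraint library. The sum of 5 neutrophil markers was 0.123, 0.122 and 0.165 CPM across controls 1 to 3 and 0.449, 1.99 and 0.902 CPM across restraint 1 to 3, likewise above the controls in each, and its part was not tested either. Each of these 5 was under 1 CPM throughout, and the 1 that was tested, Csf3r, had a log2 fold change of 1.89 ± 0.48 (edgeR adjusted p = 0.0974). The sum of 5 T cell markers stayed at or below 0.171 CPM. The sum of 8 B and plasma cell markers was 47.4 to 99.9 CPM in controls and 18.0 to 27.0 CPM in restraint, with Ighm the 1 called marker, lower. Ighm made up most of that sum, at 44.8, 41.3 and 92.2 CPM across controls 1 to 3 and at 21.6, 16.9 and 12.7 CPM across restraint 1 to 3, and 5 of the 8 were under 1 CPM throughout. Of 8 tendon and 6 fibroblast markers none passed, with medians of -0.94 and -0.071. Their sums were lowest in restraint 1, at 83.4 and 561 CPM. All 8 tendon markers were negative in log2 fold change. In CPM, 5 of these 8 were lower with no overlap of the groups, against 11.1% of all features. Summed Schwann cell markers were 160, 444 and 261 CPM across controls 1 to 3 and 127, 111 and 333 across restraint 1 to 3. Summed adipocyte markers were 34.7, 114 and 139 CPM across controls 1 to 3 and 115, 65.9 and 41.7 across restraint 1 to 3.

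Other genes of these pathways were read from lists that complete each group and that were chosen with earlier results of these data known. Of 24 tested further targets of ATF4, 4 rose and 0 fell, where 1.26% of all features were called higher and 0.563% lower, and the median log2 fold change was 0.32. Slc38a2, the amino acid transporter SNAT2, stood at 62.0, 59.8 and 50.1 CPM across controls 1 to 3 and at 114, 156 and 138 CPM across restraint 1 to 3. Each restraint library was well above every control, and Slc38a2 rose by a log2 fold change of 1.25 ± 0.14 (edgeR adjusted p = 0.00822). Gpt2, the mitochondrial alanine aminotransferase, rose by 0.55 ± 0.097 (edgeR adjusted p = 0.0305), from 227 ± 8.21 to 331 ± 18.6 CPM. The call for Gpt2 was lost without each library in turn, with adjusted p from 0.0602 to 0.189. The other two were the stress-induced transcription factor Atf3, at 4.21 ± 0.32, and the translational repressor Eif4ebp1, at 1.08 ± 0.16. The call for Eif4ebp1 was lost without any control and without restraint 3 (edgeR adjusted p from 0.0571 to 0.134). That for Slc38a2 was lost without control 1 (0.0689), and Atf3 kept its call without each library in turn. Among 11 alternative fits with all 6 libraries, described below, Eif4ebp1 was called in 7, Slc38a2 in 9, Gpt2 in 6 and Atf3 in 10. Of the secreted outputs of the response, Fgf21 had no count in any library, which allows up to 0.0551 to 0.0731 CPM per library at 3 counts, and Gdf15 did not exceed 0.0817 CPM and was not tested.

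**Figure D4:**
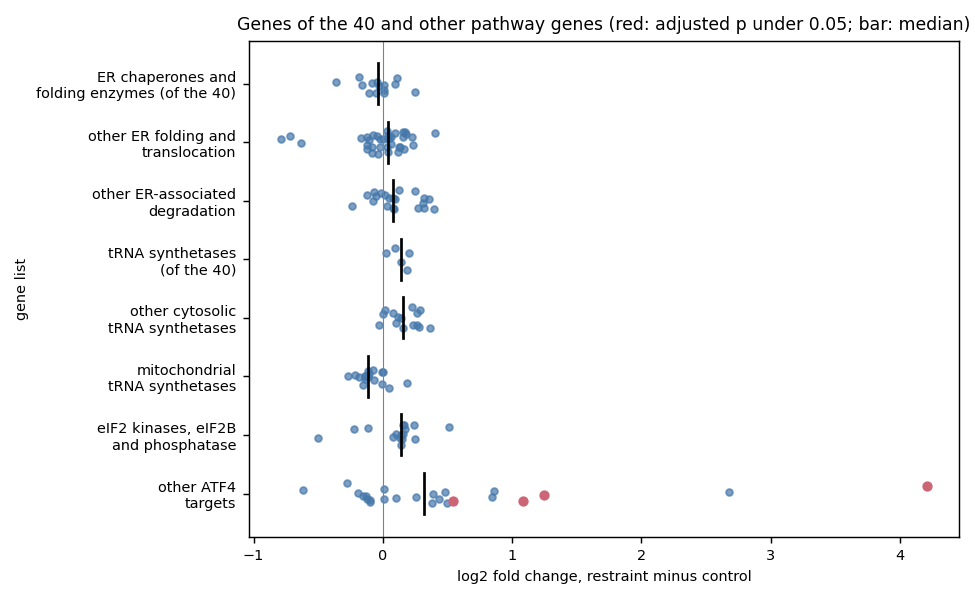
Log2 fold change (x axis, restraint minus control) of each tested gene in 8 lists (y axis), with the median as a bar and genes with an adjusted p under 0.05 in red. The 4 red points, from 0.55 to 4.21, lie among the other ATF4 targets; 14 of the 15 other cytosolic tRNA synthetases sit to the right of 0 and 15 of the 17 mitochondrial ones to its left, with no call in either.

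Of the 15 other cytosolic tRNA synthetases, 14 were positive in log2 fold change, with a median of 0.16 and no call. The smallest p belonged to Kars, for lysine, at 0.29 ± 0.10, and Tars, for threonine, at 0.26 ± 0.098, with edgeR adjusted p of 0.23 and 0.241. Of the 17 mitochondrial synthetases, 2 were positive and 15 negative, with a median of -0.11, again with no call, led by Hars2 at -0.21 ± 0.11 and Fars2 at -0.14 ± 0.092. The difference between these lists was not tested. Among 16 genes of the eIF2 kinases, eIF2B and eIF2α phosphatase, 13 were positive with a median of 0.14 and no call. Impact, an inhibitor of the kinase GCN2, had 0.51 ± 0.14, and Eif2ak2, the kinase PKR, -0.50 ± 0.17.

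The remaining ER lists were centred near 0. For 36 further folding and translocation genes the median was 0.037, with no call. Stt3b, a catalytic subunit of the oligosaccharyltransferase, had 0.40 ± 0.088 (edgeR adjusted p = 0.064), and Fkbp14, a prolyl isomerase, -0.72 ± 0.17 with 0.088. For 21 tested genes of ER-associated degradation the median was 0.077, also with no call. Herpud2, the relative of Herpud1, had 0.31 ± 0.099, and Ube2g2, a ubiquitin-conjugating enzyme of the pathway, 0.32 ± 0.10. Of 12 further signalling genes the median was -0.015, led by the cell death genes Bbc3 at 1.11 ± 0.42 and Bak1 at 0.32 ± 0.12. Medians were -0.0073 for 17 further folate and serine genes, where Sfxn2 had -0.74 ± 0.25 and Atic 0.23 ± 0.095, and 0.022 for 11 mitochondrial stress genes, where Clpx had -0.31 ± 0.13 and Htra2 -0.18 ± 0.12, and none of them passed.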

How the data were processed

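Read counts, in whole numbers for each feature and library, are the deposited values used for tests. The authors' TPM, named so per the file headers, were used for levels between genes, and the authors' FPKM, per the file headers, were not used. The submitters' processing notes name GRCm38 (mm10) and the tools StringTie 2.1.3b, HISAT2 2.1.0, Trimmomatic and bcl2fastq 2.20.0, without saying what each did. In R 4.3.3, edgeR 4.0.16 fitted group as the only term (glmQLFit and glmQLFTest, two-sided, TMM factors) after filterByExpr at a minimum count of 10 and minimum total of 15, with Benjamini-Hochberg adjustment over 15448 features at 0.05. The 825 unannotated loci, which have an identifier but no symbol and took 4.84% to 7.14% of counts, were kept. SE was taken from the log2 fold change and the F statistic, and 95% intervals use the degrees of freedom of the fit. CPM are scaled by TMM factors, and 3 counts equal 0.0551 to 0.0731 CPM per library, a floor that covers counting error only. The script was tested on simulated counts. Libraries of a group differed by more than sampling noise (chi-square of 28.3 or more per degree of freedom).

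The 40 genes, the pathway lists and the marker lists were chosen with earlier results of these data known. Library values are given for called genes, for the 3 genes with the smallest p in each role and for Hspa5, Xbp1, Atf4, Ddit3, Asns, Mthfd2, Shmt2 and Herpud1; of each further list, the called genes (at most 4) or the 2 with the smallest p are named, with Atf3, Fgf21 and Gdf15. Edem1, P4hb, Pdia5, Erp29, Erp44, Txndc5, Txndc11, Cd68, Csf3r and Ighm were named after their values were seen. Alternatives were median-of-ratios size factors, library totals, no filter, a stricter filter (in every library of a group 1 CPM, and 10 counts on average), DESeq2 1.42.0, limma 3.58.1 with voom or on log2 TPM with a pseudocount of 1 or 0.1 (TPM of at least 1 in 3 libraries, or no filter), a replicate block, a fit with neither unannotated loci nor mitochondrial genes, and each library left out. Exon overlaps are from GENCODE M21 on GRCm38.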

Additional observations from a re-analysis of the deposited data

How the results depend on the processing

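Against 282 features called, 809 were called by DESeq2, 88, 38 and 3 by limma on log2 TPM with a pseudocount of 1, of 0.1 and of 1 without a filter, and 60 with the replicate block; with each library left out the count ran from 16 to 350. Of the 40 genes, 2 were called, against 4 by DESeq2, 1 each with library totals, limma voom and the replicate block, 0 under each of the 3 TPM fits, and with single libraries left out 3 (restraint 1), 1 (restraint 2) or 0 (restraint 3 and each control). Ppp1r15a kept its call with the replicate block (adjusted p = 0.0458) and Mthfd2 did not (0.181). Replicate numbers are not shown to pair libraries: deviations from group means of same-numbered libraries correlated at 0.014, -0.20 and -0.21, and not every library correlated best with its own number. The median of the ER genes was 0.0075, with -0.0098 to 0.063 when each library was left out, and that of the 12 amino acid, folate and synthetase genes 0.14, with 0.10 to 0.20. The log2 fold changes of 12 genes, none over 0.16 in size, changed sign under at least 1 of the 17 alternatives without being called. The strict filter removed Trib3 and the TPM filter Asns. Depth limits the precision of low genes: Mthfd2, Psat1, Phgdh, Asns, Ern1, Trib3 and Sdf2l1 had under 100 counts in at least 1 library. The cause of these changes was not tested.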
